A study of Homo sapiens with 6 samples.

Results

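GPX3 and 8 protein-coding genes that lie near it on chromosome 5 (TNIP1, ANXA6, DCTN4, RBM22, GM2A, ATOX1, G3BP1 and CCDC69) were followed in A549, a long-established line of human lung adenocarcinoma cells, with and without GPX3 overexpression. The 9 genes were taken by name from the deposited tables, which list 58735 genes, and each name matched 1 gene. All 9 were among the 14458 genes with enough counts to be tested. The series holds 3 libraries titled OE_GPX3, whose genotype and treatment are both given as OE, and 3 libraries titled Vector, whose genotype and treatment are both given as WT. The labels do not state the kind of vector, whether the cells are 1 clone or a pool, or whether replicates came from separate cultures. The p-values below therefore cover only the spread among these libraries, which may be technical. Total counts were 15831693 to 17742307 in OE_GPX3 and 16373203 to 18751815 in Vector libraries. The epithelial genes KRT8, KRT18, EPCAM and CDH1 were present in all 6 libraries, the lowest value being 19.0 FPKM (fragments per kilobase of gene length, scaled to library total), while PTPRC, COL1A1 and PECAM1 stayed at or below 0.680 FPKM.

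GPX3 encodes the secreted glutathione peroxidase, which uses glutathione to reduce hydrogen peroxide and organic peroxides outside the cell. It is a selenoprotein: its active site holds selenocysteine, which is read from an in-frame UGA codon with the help of a structure further along the messenger RNA. Introducing extra copies of a gene normally leaves its native locus in place, so the genes around that locus give a local background against which the change of GPX3 can be read. The comparison asked whether those neighbours differed between OE_GPX3 and Vector libraries.

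GPX3 is a selenoprotein, and the relatives shown here share its selenocysteine codon. In the principal GPX3 transcript of GENCODE release 29 the coding sequence is 678 bases long and holds 1 in-frame TGA before the stop, at codon 73, in exon 2 of 5 (hg38, chromosome 5, 151025469 to 151025471, plus strand). The stretches of 75 coding bases around that codon in GPX3 and in 3 of its relatives, written 5′ to 3′ in the sense direction with the selenocysteine codon in capitals, show how far they differ.
GPX3: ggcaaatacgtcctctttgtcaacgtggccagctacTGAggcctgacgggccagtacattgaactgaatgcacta
GPX1: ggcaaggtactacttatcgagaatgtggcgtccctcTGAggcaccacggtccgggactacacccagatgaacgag
GPX2: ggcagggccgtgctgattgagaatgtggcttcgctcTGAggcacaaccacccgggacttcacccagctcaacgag
GPX4: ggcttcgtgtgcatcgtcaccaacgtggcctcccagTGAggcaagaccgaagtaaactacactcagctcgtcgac
The GPX1 codon lies at chromosome 3, 49358132 to 49358134 (minus strand), the GPX2 codon at chromosome 14, 64942607 to 64942609 (minus strand) and the GPX4 codon at chromosome 19, 1105403 to 1105405 (plus strand). Aligned on that codon without gaps, 37 of the 75 bases of GPX1, 36 of GPX2 and 34 of GPX4 were identical to GPX3. Over that whole transcript, 0 of 1606 stretches of 31 bases occurred, on either strand, in an annotated transcript of another gene. The transcript has 1636 bases and the deposited gene length is 3163, so part of the counted sequence was not searched. A read from an introduced GPX3 sequence and one from the chromosome 5 gene are counted together, and these tables cannot tell them apart.

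GPX3 was high in every OE_GPX3 library. Counts per 1000000 counts of a library, scaled between libraries by TMM (CPM), were 1311, 1031 and 1361 in OE_GPX3 and 36.0, 33.8 and 39.6 in Vector libraries, where it was already detected with 638 to 658 counts. The lowest OE_GPX3 library stood far above the highest Vector library. The mean difference was 1198 CPM, a 33.8-fold rise with a 95% confidence interval of 28.1-fold to 40.7-fold (edgeR adjusted p = 2.0e-27). On the deposited FPKM scale the log2 fold change was 4.97 with a standard error of 0.12 (limma on log2(FPKM + 1), adjusted p = 3.6e-09). Ordered by FPKM among 19951 protein-coding genes, GPX3 took places 77, 115 and 82 in OE_GPX3 and 3344, 3558 and 3160 in Vector libraries. It made up 0.0986% to 0.133% of all counts in OE_GPX3 and 0.00351% to 0.00396% in Vector libraries. The spread between replicates was a coefficient of variation of 14.4% in OE_GPX3 and 7.99% in Vector, against 0.697% and 3.93% from counting alone.

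**Figure D1:**
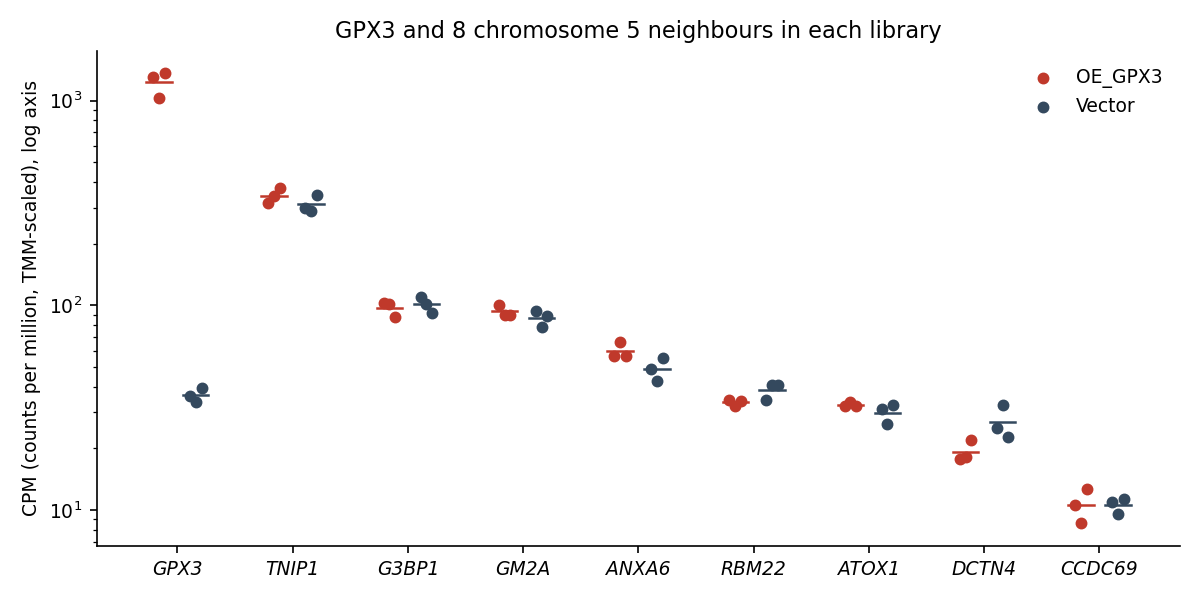
CPM of GPX3 and its 8 neighbours in each of the 6 libraries on a log axis; each point is a library and each line the mean of 3, with OE_GPX3 left of Vector for each gene. GPX3 lies between 1031 and 1361 CPM in OE_GPX3 libraries and between 33.8 and 39.6 CPM in Vector libraries, while the largest difference of a neighbour is the log2 fold change of -0.48 in DCTN4.

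Of the 9 genes GPX3 alone was called, at an edgeR adjusted p under 0.05, and 0 of the 8 neighbours were. Over all tested genes 0.263% were called. The neighbours had log2 fold changes from -0.48 to 0.29, 5 above and 3 below 0, with a median of 0.06, against a median of -0.02 over all tested genes. Their adjusted p values ran from 0.120 to 0.985, and 2 of 8 had an unadjusted p under 0.05, as did 14.6% of all tested genes. In 2 of 8 neighbours the groups shared no part of their range, as in 18.5% of all tested genes. The farthest bound of any of the 8 confidence intervals was a change of 1.70-fold, for DCTN4. On the FPKM scale limma also called GPX3 and 0 neighbours, where it called 0.037% of the genes tested.

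TNIP1 is the closest neighbour and encodes an adaptor that binds the ubiquitin-editing enzyme A20 and restrains NF-kB signalling. It runs on the minus strand towards GPX3 (hg38, chromosome 5, 151029945 to 151093577), and 951 bases separate the annotated ends of the genes. Its level was 315, 343 and 373 CPM in OE_GPX3 and 298, 290 and 347 CPM in Vector libraries. The groups overlapped, since Vector replicate 3 was above OE_GPX3 replicates 1 and 2. The log2 fold change was 0.14, its 95% confidence interval -0.07 to 0.35 and its adjusted p 0.539 in edgeR. In CPM that interval runs from -15.2 to 86.4 relative to the Vector mean, next to the rise of 1198 CPM in GPX3. After a correction for GC content the log2 fold change of TNIP1 was 0.02 (edgeR adjusted p = 0.971). TNIP1 is also the deepest of the neighbours, with 5278 to 5813 counts per library. In its principal transcript 0 of 2755 stretches of 31 bases recur in an annotated transcript of another gene. In FPKM, GPX3 was 5.50 to 7.62 times as high as TNIP1 in OE_GPX3 libraries, whereas TNIP1 was 4.52 to 4.78 times as high as GPX3 in Vector libraries.

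On the other side of GPX3, before its start, lie DCTN4 and RBM22. DCTN4 encodes a subunit of dynactin, the cofactor with which the dynein motor carries cargo along microtubules; its start is 261 kb from that of GPX3 (chromosome 5, 150708440 to 150759109, minus strand). DCTN4 had 17.7, 18.1 and 22.1 CPM in OE_GPX3 and 25.3, 32.6 and 22.8 CPM in Vector libraries. The groups did not overlap, though OE_GPX3 replicate 3 and Vector replicate 3 nearly met. It had the largest difference of the 8 neighbours, with a log2 fold change of -0.48, a standard error of 0.14 and an interval of -0.77 to -0.20, and it did not pass the adjustment (edgeR unadjusted p = 0.00139, adjusted p = 0.120). A difference at least that large in either direction was seen in 7.63% of all tested genes. Vector replicate 2 held the highest value, and without it the log2 fold change was -0.32 (edgeR unadjusted p = 0.0480, adjusted p = 0.707). Leaving out any other single library gave values from -0.58 to -0.43. The GC content of the longest DCTN4 transcript is 41.8%. After a correction for GC content the log2 fold change was -0.33 (edgeR unadjusted p = 0.0285, adjusted p = 0.458). The OE_GPX3 mean minus the Vector mean was -7.62 CPM.

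RBM22, a zinc finger RNA-binding protein at the catalytic core of the spliceosome, starts 58.0 kb further out (chromosome 5, 150690794 to 150701107, minus strand). It had 34.4, 32.3 and 33.9 CPM in OE_GPX3 and 34.3, 40.6 and 40.7 CPM in Vector libraries. Vector replicate 1 lay among the OE_GPX3 libraries, so the groups overlapped. The log2 fold change was -0.20 with bounds of -0.44 and 0.04 (edgeR adjusted p = 0.427). Within OE_GPX3 the RBM22 libraries lay closer together than in Vector, with coefficients of variation of 3.19% and 9.52%, a difference that was not tested. Counting alone gives 4.22% in OE_GPX3 and 3.81% in Vector, so the OE_GPX3 spread was below counting error.

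**Figure D2:**
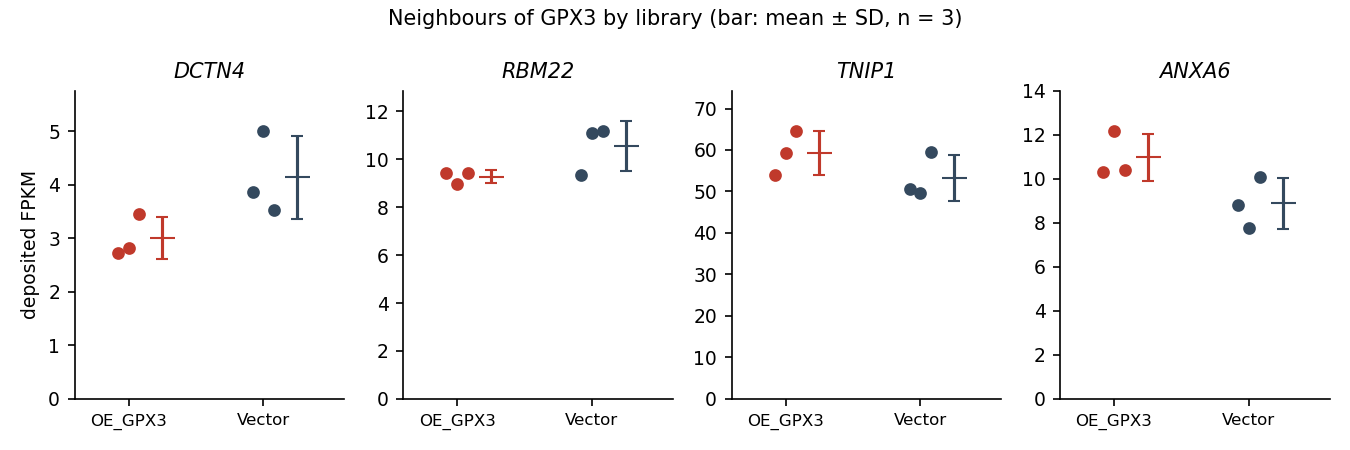
Deposited FPKM of DCTN4, RBM22, TNIP1 and ANXA6 by library, with OE_GPX3 left of Vector; points are libraries, bars are mean ± SD of 3, and every axis starts at 0. DCTN4 lies at 2.73 to 3.45 FPKM in OE_GPX3 and 3.53 to 5.01 in Vector libraries, and ANXA6 at 10.3 to 12.2 and 7.76 to 10.1, each without overlap, while RBM22 and TNIP1 overlap.

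Beyond TNIP1 lie ANXA6, CCDC69 and GM2A. ANXA6 encodes an annexin, a protein that binds phospholipid membranes in the presence of calcium (chromosome 5, 151100712 to 151157882, minus strand). It had 56.4, 66.0 and 56.3 CPM in OE_GPX3 and 48.7, 42.6 and 55.0 CPM in Vector libraries. Its groups did not overlap, though OE_GPX3 replicate 3 and Vector replicate 3 nearly met. The log2 fold change was 0.29, with a standard error of 0.12 and an interval of 0.05 to 0.53, and it did not pass the adjustment (edgeR unadjusted p = 0.0171, adjusted p = 0.254). Without Vector replicate 2, the lowest library, the log2 fold change was 0.20 (edgeR unadjusted p = 0.148, adjusted p = 0.749). Leaving out any other single library gave values from 0.22 to 0.40. After the correction for GC content the log2 fold change of ANXA6 was 0.21 (edgeR unadjusted p = 0.0559, adjusted p = 0.531).

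GM2A and CCDC69 overlap each other on opposite strands (151212150 to 151270440, plus, and 151181052 to 151224145, minus, on chromosome 5). The strand setting of the counting is unknown here, so both are uncertain where they overlap. GM2A encodes the activator protein with which lysosomal hexosaminidase A breaks down the ganglioside GM2. It had 100.6, 90.1 and 89.7 CPM in OE_GPX3 and 93.3, 78.6 and 88.7 CPM in Vector libraries. The groups overlapped, and the log2 fold change was 0.11 with bounds of -0.11 and 0.32 (edgeR adjusted p = 0.655). CCDC69, a coiled-coil protein linked to the midzone of the dividing spindle, was the lowest of the 9, at 10.5, 8.62 and 12.7 CPM in OE_GPX3 and 10.9, 9.51 and 11.2 CPM in Vector libraries. Both the highest and the lowest CCDC69 library belonged to OE_GPX3. Its log2 fold change was 0.01 with bounds of -0.32 and 0.34 (edgeR adjusted p = 0.985), the widest interval of the 8 on that scale and the one that rests on the fewest counts, 146 to 196 per library.

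ATOX1 and G3BP1 are the outermost of the 9, with starts 752 kb and 751 kb from that of GPX3. ATOX1 encodes a small chaperone that hands copper to the copper-transporting ATPases, and G3BP1 an RNA-binding protein around which stress granules form. They too overlap each other on opposite strands (151742316 to 151772532, minus, and 151771045 to 151812785, plus, on chromosome 5), and 14.05% of the stretches of 31 bases in the ATOX1 principal transcript lie opposite G3BP1. ATOX1 had 32.2, 33.8 and 32.2 CPM in OE_GPX3 and 30.98, 26.2 and 32.5 CPM in Vector libraries. Vector replicate 3 fell within the OE_GPX3 range, and the log2 fold change was 0.13 with bounds of -0.12 and 0.38 (edgeR adjusted p = 0.626). G3BP1 had 103.1, 101.2 and 88.1 CPM in OE_GPX3 and 110.4, 101.4 and 91.4 CPM in Vector libraries. In both groups replicate 3 was the lowest, the groups overlapped, and the log2 fold change was -0.05 with bounds of -0.27 and 0.17 (edgeR adjusted p = 0.848). The sign of the G3BP1 and CCDC69 values depended on the processing, as described in the closing section.

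Every gene around GPX3 was then read, not only those named above. Within 1 Mb of the GPX3 start the count table lists 58 genes, 30 of them protein coding, and 26 of the 58 had no count in any library. Of these 58 genes 19 were tested, namely the 9 described, 7 further protein-coding genes and 3 genes of other classes. GPX3 was the only one called. The other 18 had log2 fold changes from -0.48 to 0.44, 12 above and 6 below 0, with a median of 0.09, and 2 of them (11.1%) had an unadjusted p under 0.05, both described above. Within 500 kb 10 genes were tested and within 2 Mb 31 were, and GPX3 was again the only one called at either distance. Over all tested genes 0.263% were called and 14.6% had an unadjusted p under 0.05 in edgeR. At that share of calls, sets this small would mostly hold none besides GPX3. The tested genes closest to GPX3 on either side, TNIP1 and SMIM3 (a small membrane protein), had log2 fold changes of 0.14 with an interval of -0.07 to 0.35 and of 0.14 with an interval of -0.31 to 0.58.

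**Figure D3:**
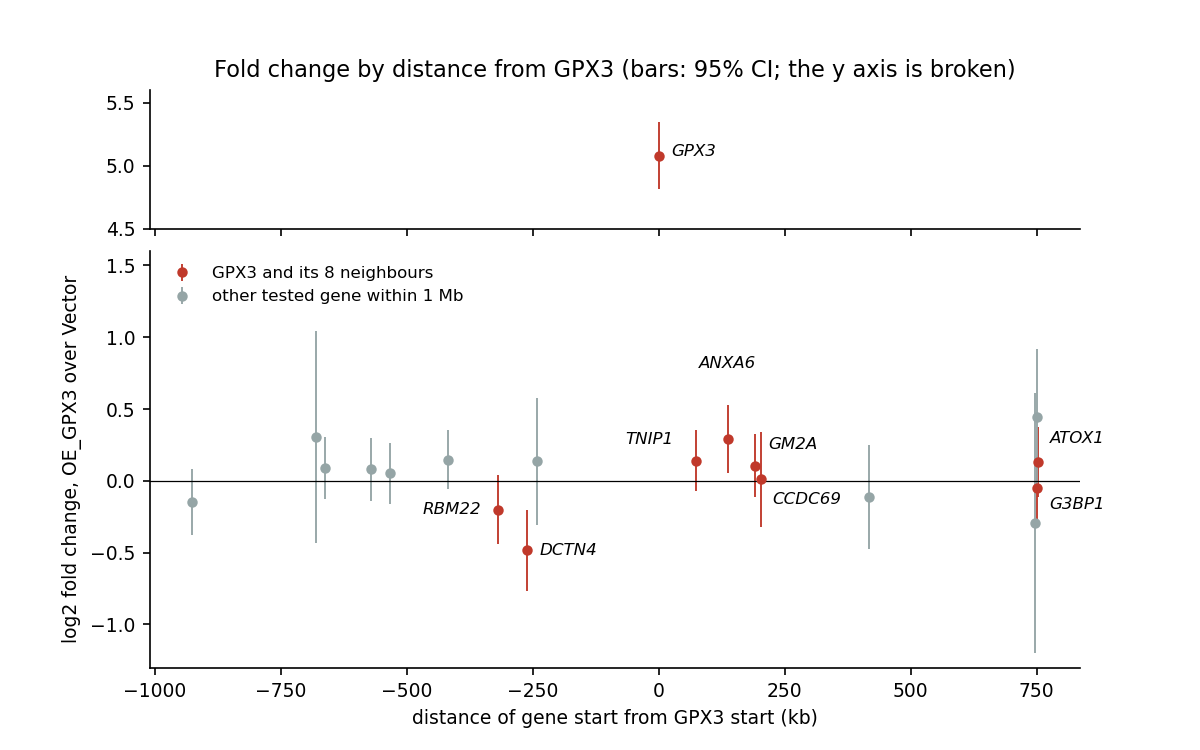
Log2 fold change of OE_GPX3 over Vector for the 19 tested genes within 1 Mb of GPX3, against the distance of each gene's start from that of GPX3 in kb; points are edgeR estimates, bars 95% confidence intervals, and the y axis is broken. GPX3 stands at 5.08, and the other 18 genes lie between -0.48 and 0.44.

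The place of GPX3 among these genes was compared on the deposited FPKM, which divide by gene length. In OE_GPX3 libraries GPX3 led with 390 ± 55.9 FPKM, ahead of TNIP1 with 59.3 ± 5.37 and GM2A with 20.9 ± 1.23 (SD, n = 3). ANXA6, RBM22, G3BP1, ATOX1, DCTN4 and CCDC69 followed at 10.98, 9.28, 7.85, 6.24, 3.001 and 2.13 FPKM, and no pair of neighbours in that order overlapped in range. In Vector libraries TNIP1 led with 53.2 ± 5.52 FPKM, then came GM2A with 19.2 ± 1.63 and GPX3 with 11.4 ± 0.955 (SD, n = 3). RBM22, ANXA6, G3BP1, ATOX1, DCTN4 and CCDC69 followed at 10.5, 8.89, 8.05, 5.64, 4.14 and 2.09 FPKM. There the ranges of GPX3 and RBM22, of RBM22 and ANXA6, of ANXA6 and G3BP1 and of ATOX1 and DCTN4 overlapped, so those places do not differ beyond their spread.

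This order rests on the length used. The deposited length of ATOX1 is 5239 bases, whereas its longest principal transcript has 749, which is 6.99 times shorter, and for GPX3 the lengths are 3163 and 1636 bases. Per kilobase of principal transcript, a length chosen after the data were seen, ATOX1 stood at 43.7 ± 1.26 CPM per kb in OE_GPX3 and 39.9 ± 4.38 in Vector libraries (SD, n = 3 each), which puts it in place 3 and place 2 of the 9 in place of 7 in both. GPX3 then stood at 755 ± 109 CPM per kb in OE_GPX3 and 22.3 ± 1.78 in Vector libraries (SD, n = 3 each). The 11 annotated GPX3 transcripts range from 316 to 1757 bases, and the gene counts do not show which of them was present. Fold changes between groups do not depend on which of these lengths is used, since a gene has the same length in every library. They compare counts, and whether the GPX3 transcripts counted had the same length in both groups is not known.

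**Figure D4:**
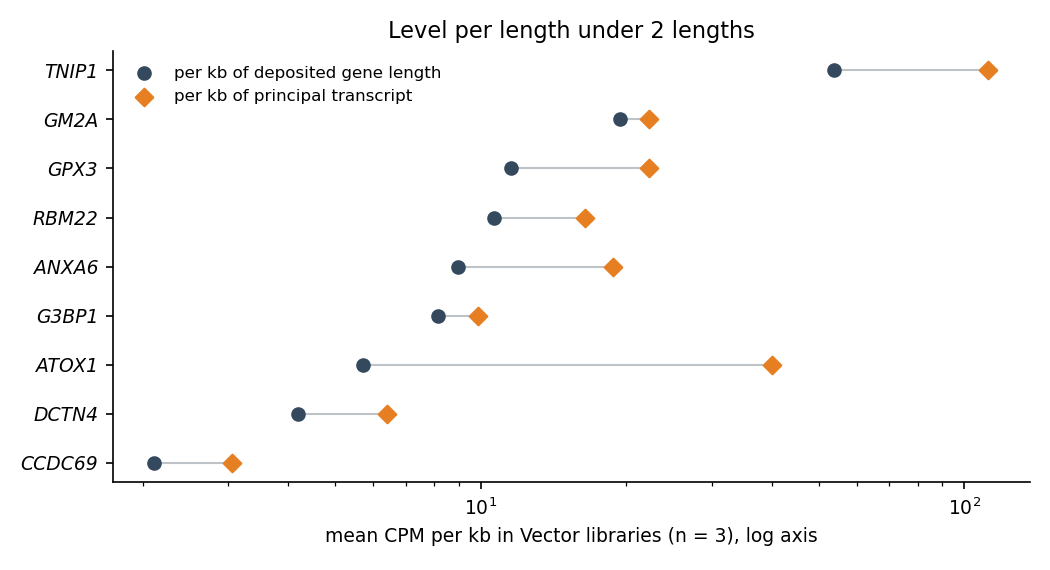
Mean CPM per kilobase of each of the 9 genes in the 3 Vector libraries on a log axis, with circles for the deposited gene length and diamonds for the principal GENCODE transcript. The longest line belongs to ATOX1, whose 2 lengths differ 6.99-fold.

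Genes that work with GPX3 or with a neighbour were counted from lists of partners. Of the 65 tested partners 0 were called and 10 (15.4%) had an unadjusted p under 0.05 in edgeR, against 0.263% called and 14.6% with an unadjusted p under 0.05 over all tested genes. Of the partners 30 were above and 35 below 0, and the median log2 fold change was -0.05. Without OE_GPX3 replicate 1 edgeR called 4 partners and 4.47% of all tested genes. Without Vector replicate 1 it called 1 partner and 0.788% of all tested genes, and the range over the libraries left out was 0 to 4 partners. For GPX3, the lists held 4 tested paralogs (median 0.16, range -0.21 to 0.20, of which GPX1, GPX2 and GPX4 were above 0 and GPX8 below), 4 enzymes that make or recycle glutathione (median -0.07, range -0.11 to 0.07) and 7 factors of selenocysteine insertion (median -0.08). The selenocysteine factors ranged from -0.84 for SEPSECS, the selenocysteine synthase, to 0.36 for EEFSEC, the selenocysteine elongation factor. Their edgeR adjusted p-values were 0.129 for SEPSECS and 0.201 for EEFSEC, and 3 of the 7 had an unadjusted p under 0.05. For the neighbours they held 11 other dynactin subunits for DCTN4 (median 0.04), 8 spliceosome proteins for RBM22 (median -0.13, range -0.31 to 0.04), 5 genes around A20 for TNIP1 (median 0.16, range -0.26 to 0.44) and 11 other annexins for ANXA6 (median 0.04). They also held 6 copper-handling genes for ATOX1 (median 0.01, range -0.21 to 0.31), 7 stress granule genes for G3BP1 (median -0.10, range -0.20 to 0.15) and the 2 hexosaminidase subunits for GM2A (median 0.02, values -0.09 and 0.12). The other dynactin subunits ranged from -0.35 to 0.20, with 6 above and 5 below 0. Of these 11 subunits 3 had an unadjusted p under 0.05 in edgeR, each of them below 0 like DCTN4. The value of -0.48 for DCTN4 lay below all 11. The other annexins ranged from -0.61 to 0.12, and the 0.29 of ANXA6 lay above each of them. The places of DCTN4 and ANXA6 against their lists describe single values, and neither difference was tested.

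The libraries were also ordered by their GPX3 level, and other genes were ranked by how many of the 15 pairs of libraries they placed in the same order. Most of these pairs set an OE_GPX3 library against a Vector library, so the score largely restates the direction of change. A gene that matches in all 15 is by construction higher in every OE_GPX3 library than in any Vector library. The 8 neighbours matched GPX3 in 2 pairs (DCTN4) to 12 pairs (TNIP1 and ANXA6). Among 9972 other protein-coding genes averaging 5 CPM or more, 90 (0.903%) matched in all 15, of which 1 was called by edgeR. The 5 of these with the largest rise were GPS2, METRN, EFNB1, LRP3 and FCGRT, with log2 fold changes of 1.34, 0.58, 0.43, 0.42 and 0.38, over 6 libraries. METRN was the called one (edgeR adjusted p = 0.0224). GPS2 had 12.3, 12.2 and 13.8 CPM in OE_GPX3 and 3.44, 0.977 and 11.003 CPM in Vector libraries, so Vector replicate 3 lay near the OE_GPX3 libraries and the other two did not (edgeR adjusted p = 0.521).

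**Figure D5:**
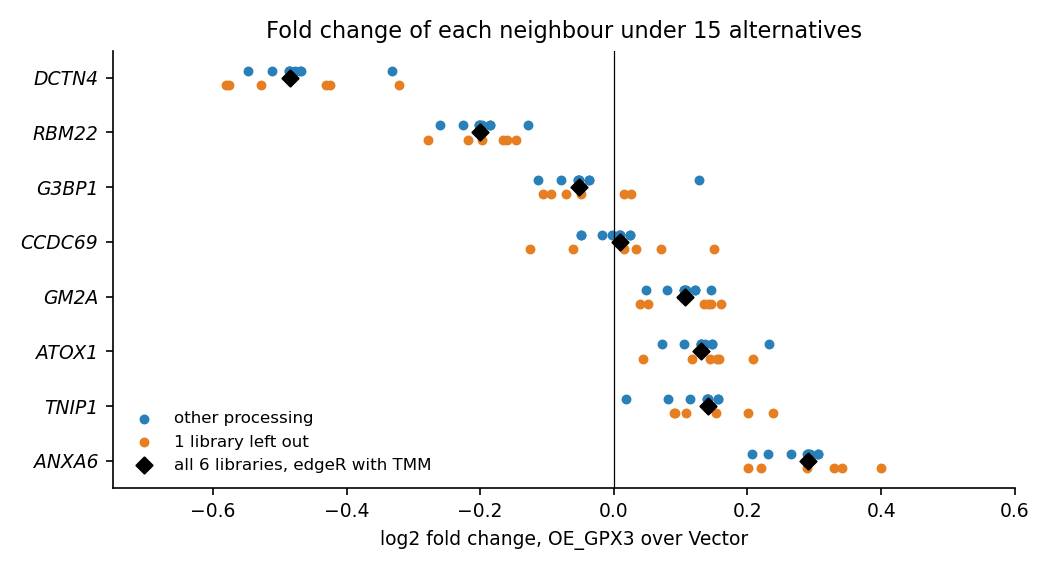
Log2 fold change of OE_GPX3 over Vector for each of the 8 neighbours with all 6 libraries (diamond), under 9 other ways of processing (upper points) and with each library left out in turn (lower points). DCTN4 stays between -0.58 and -0.32 and ANXA6 between 0.20 and 0.40, while G3BP1 and CCDC69 cross 0.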

How the data were processed

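RNA from 3 OE_GPX3 and 3 Vector libraries of A549 cells was compared, and each library was placed by its title. The authors deposited whole-number counts per gene, and the build is hg38 per the submitters' processing notes. They also deposited FPKM, which divide the counts by the gene length and by a library total that they scaled. That scaling, the aligner, the counter and the strand setting are unstated in the labels and tables, and the labels' protocols describe a small RNA library. All 58735 genes have the position given in GENCODE release 29.

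Counts were filtered with filterByExpr (minimum count 10, minimum total 15), scaled by TMM and tested with edgeR 4.0.16 (quasi-likelihood, robust, two-sided; Benjamini-Hochberg over 14458 genes, adjusted p under 0.05). FPKM were tested with limma 3.58.1 (trend) on log2(FPKM + 1) for genes of mean FPKM 1 or more; that scale understates changes of low genes. Intervals are the edgeR estimate with its standard error, taken from the F statistic. DESeq2 1.42.0 was an alternative. GC content was that of the longest transcript, and its correction subtracted a smooth of each library's log CPM deviations on GC. R was 4.3.3. The test was tried on simulated data. Total counts were 15831693 to 18751815, and counting error and replicate spread as coefficients of variation are given for GPX3 and RBM22.

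The members and lists were chosen with earlier results of these data known. By rule, the 9 genes were named whatever their values, genes within 1 Mb and partners only if called, and up to 5 genes ordering the libraries most like GPX3. SMIM3 and the paralogs GPX1, GPX2, GPX4 and GPX8, SEPSECS and EEFSEC, and ZNF300 and AC091982.3, were named after their values were seen.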

Additional observations from a re-analysis of the deposited data

How the results depend on the processing

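The rise of GPX3 kept its direction and its call under all 15 alternatives, with log2 fold changes from 4.98 to 5.21. In 120 further values, the 8 neighbours under the same 15 alternatives, 0 calls were made with edgeR or DESeq2, and the lowest adjusted p was 0.0577, for DCTN4 without OE_GPX3 replicate 1. DESeq2 gave no adjusted p for CCDC69. TNIP1, ANXA6, DCTN4, RBM22, GM2A and ATOX1 kept their sign throughout. That of CCDC69 (0.0093) turned with total counts alone (-0.0487), upper-quartile scaling (-0.0172), the GC correction (-0.0497) and, in leaving out 1 library, over a range of -0.13 to 0.15. That of G3BP1 (-0.05) turned with the GC correction (0.13) and over a leave-one-out range of -0.11 to 0.0263. The cause was not tested.

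Counts over all genes moved far more. Instead of 38 genes (14 higher, 24 lower), total counts alone called 68 (13 higher, 55 lower), no filter on low counts 129, DESeq2 119 (76 higher, 43 lower) and the GC correction 4 (2 higher, 2 lower). DESeq2 size factors in edgeR gave 18 higher and 21 lower, and upper-quartile scaling 14 higher and 38 lower. Leaving out 1 library called 657 (OE_GPX3 replicate 1), 1 (OE_GPX3 replicate 2), 12 (OE_GPX3 replicate 3), 116 (Vector replicate 1), 4 (Vector replicate 2) or 35 (Vector replicate 3), and of the partners 0 to 4. The replicate block called 231 genes, 0 of them neighbours, and gave CCDC69 -0.0021. Deviations of same-numbered libraries correlated at 0.44, 0.04 and 0.30, and those of differently numbered libraries at -0.36 to 0.12. OE_GPX3 replicates 1 and 3 each correlated best with the Vector library of the same number, whereas OE_GPX3 replicate 2 correlated best with Vector replicate 3. Whether same-numbered libraries share more than a number is therefore unknown, and the main test holds no replicate block. With principal transcript lengths 9 of 18 places in the order by level were kept. CPM per kb of the deposited length kept all 18, but it divides the same counts by the same length as FPKM. The 2 measures differ only by a factor per library, so this is little check of the order. Depth limits CCDC69 most.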

Other observations

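Several protein-coding genes within 1 Mb of GPX3 were near or at 0. Of the 30, 14 were not tested, and 4 of these had no count in any library. The highest count in a single library among the 14 was 13, in the zinc finger gene ZNF300. A long non-coding gene, AC091982.3, overlaps both ATOX1 and G3BP1 and had the highest log2 fold change of the 18 tested genes around GPX3, 0.44 with bounds of -0.03 and 0.92 (edgeR adjusted p = 0.377); the -0.48 of DCTN4 was larger in size. Its counts are uncertain because of those overlaps.

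Chromosome 5 as a whole had 635 tested genes, of which 3 (0.472%) were called, against 0.263% of all tested genes: the overexpressed GPX3, the growth factor-induced transcription factor EGR1 and the non-coding gene AC034213.1. With so few calls the share on chromosome 5 rests in part on GPX3, which was raised by design. The median log2 fold change was -0.08 on chromosome 5 and -0.01 over the 13823 tested genes elsewhere, with 63.5% and 52.1% of genes below 0. The median GC content of the longest transcripts was 44.7% on chromosome 5 and 49.3% elsewhere. After the GC correction the medians were -0.0092 on chromosome 5 and 0.0038 elsewhere. The 18 other tested genes within 1 Mb of GPX3 had a median of 0.09 before that correction.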
